A study of Mus musculus with 6 samples.

Results

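Secreted regulators of bone morphogenetic protein (BMP) signaling were compared between stem cells and their dividing progeny in the mouse incisor. They were 10 genes taken by symbol from a table of 23718, with 6 ligands (Bmp2, Bmp3, Bmp4, Bmp5, Bmp6 and Bmp7) and 4 antagonists (Nog, Grem1, Chrdl1 and Fst), and all 10 were listed. The RNA came from mice 1 month old, labelled C57BL/6 though the methods of the study speak of a mixed background, and from parts of the incisor that were cut out of sections by laser capture microdissection (LCM), and was sequenced. Mice of the genotype Gli1-CreER;tdT gave 3 samples of mesenchymal stem cells (MSCs), and mice of the genotype Axin2-CreER;tdT gave 3 samples of transit amplifying cells (TACs). In each genotype the promoter named drives a Cre recombinase that tamoxifen switches on, and Cre turns on the red reporter tdTomato. By the methods of the study, 3 mice per group were given tamoxifen 1 day before collection. The driver allele and the captured region change together, so they cannot be told apart. The labels do not say which mouse gave which sample, so p-values measure the spread between these samples.

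BMPs are secreted ligands of the TGF-beta superfamily. They bind pairs of type I and type II receptors, which phosphorylate SMAD transcription factors, and target genes such as the Id, Msx and Dlx families respond. Antagonists such as noggin (Nog), gremlin (Grem1) and the chordin relatives hold BMPs outside the cell, and follistatin (Fst) binds activins as well as BMPs. In teeth, BMPs pass between epithelium and mesenchyme during development, and they take part in odontoblast differentiation. The comparison asks which of these signals each population makes.

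Values are normalized read numbers, scaled per library, and they are given in the order of replicates 1, 2 and 3. Comparing a gene between libraries assumes that this scaling holds across the differences in makeup given below. Estimated reads numbered from 20203159 to 108156380 per library. Replicate 3 of both groups stood apart from replicates 1 and 2. It had more reads (59793645 in MSC and 108156380 in TAC), less mitochondrial ribosomal RNA (0.236% and 0.112% of reads, against 8.28% to 9.07%) and more genes without a read (43.1% and 28.3% of those listed, against 6.89% to 8.36%). Differences are therefore also given within replicates 1 and 2 and within replicate 3, where a group has 1 library and no test is possible. Among the genes that define the groups, Gli1 was 256, 245 and 422 in the MSC libraries, and 153, 141 and 396 in the TAC libraries. Axin2 was 58.3, 48.0 and 12.01 in MSC and 56.8, 63.9 and 34.1 in TAC, so the groups overlapped for both driver genes. The proliferation marker Mki67 was 137, 130 and 41.5 in MSC and 593, 630 and 122 in TAC. Markers of dental mesenchyme were present in both groups, except that Barx1 had no read in MSC replicate 3.

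The antagonist Grem1 was the only one of the genes tested that passed the adjusted threshold in the reported fit, and it was higher in MSCs. It met the filter on low values through its MSC level, and without that filter its adjusted p was 0.0887. Of the 10 genes 9 could be tested, since Chrdl1 had a mean below 1. In limma with Benjamini-Hochberg adjustment over all 15391 genes, 1 of the 9 had an adjusted p-value under 0.05, where 0.422% of all genes did (0.383% with higher values in MSC and 0.039% in TAC). An unadjusted p-value under 0.05 was found for 4 of 9 (Grem1, Bmp6, Fst and Bmp2), all with higher values in MSC. Of all genes 11.9% passed it, 6.43% with higher values in MSC and 5.42% in TAC. The MSC and TAC values did not overlap for 6 of 9, against 24.5% of all genes (12.2% with higher values in MSC and 12.3% in TAC). Of these 6, Bmp2, Bmp6, Nog, Grem1 and Fst had higher values in MSC, and Bmp7 had higher values in TAC. With the replicate number as a block, 1 of 9 passed the adjusted threshold and 6 of 9 the unadjusted one, against 1.49% and 20.4% of all genes. With the library set (replicate 3 or not) as a term, 6 of 9 passed the adjusted threshold, where 11.8% of all genes did. These were Grem1 (adjusted p 0.00386), Bmp6 (0.00719), Fst (0.0229) and Bmp2 (0.0240) toward MSC, and Bmp4 (0.0354) and Bmp7 (0.0420) toward TAC. The spread between the library sets enters the error of the reported fit, so a gene that missed the threshold cannot be read as unchanged. In replicates 1 and 2 only, 8 of 9 passed the adjusted threshold, where 44.2% of all genes did. That fit takes its error from the small spread within those pairs of libraries.

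**Figure D1:**
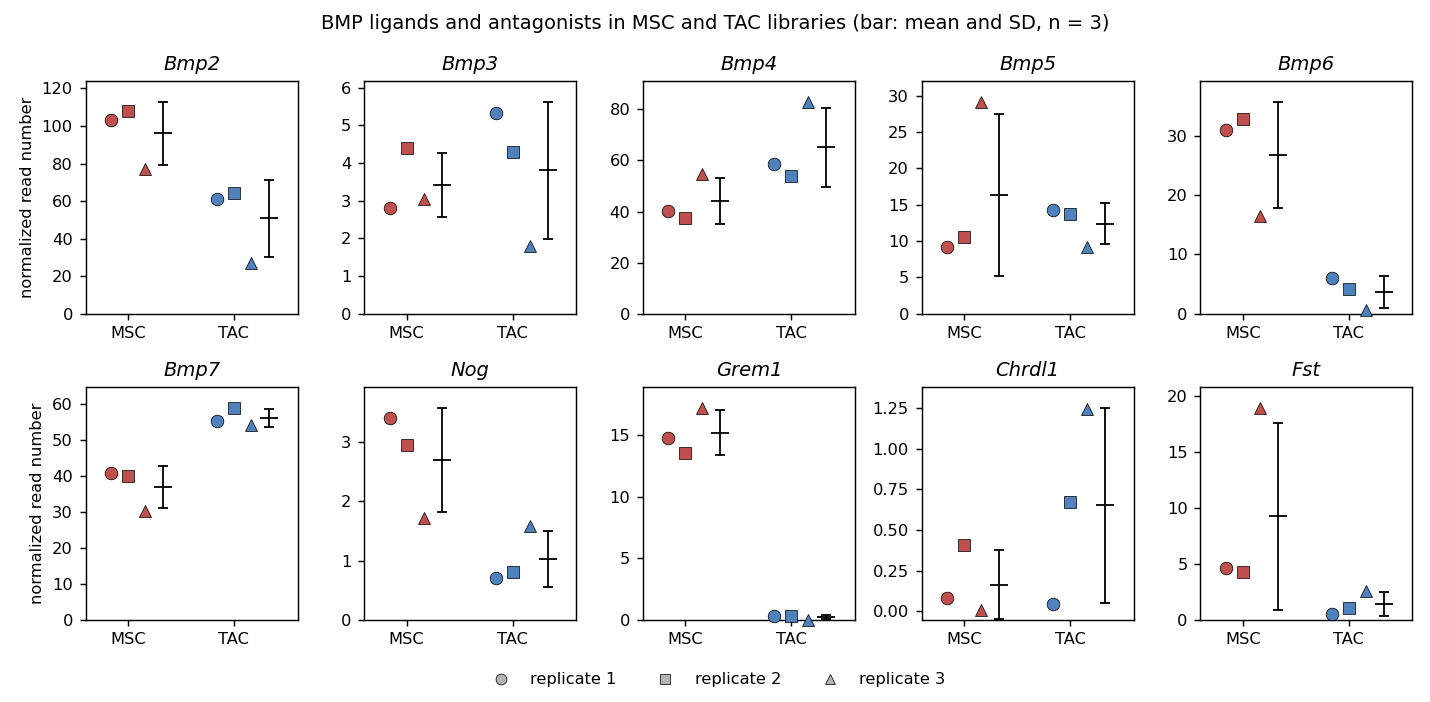
Normalized read number (y axis, a separate linear scale per panel) of the 6 BMP ligands and 4 antagonists in each MSC (red) and TAC (blue) library, with the symbol shape giving the replicate and the bar giving mean and SD (n = 3). The MSC values of Grem1 lie from 13.6 to 17.2 and its TAC values do not exceed 0.312, whereas Bmp7 lies from 30.3 to 40.8 in MSC and from 54.3 to 58.9 in TAC.

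Grem1 (chromosome 2, 113746164 to 113758646, minus strand) encodes gremlin 1, a secreted protein that binds BMP2 and BMP4. It was 14.8, 13.6 and 17.2 in the MSC libraries, and 0.285, 0.312 and 0.00379 in the TAC libraries. The 3 MSC libraries were close together and far above every TAC library. Behind the TAC values were 12, 12 and 0 estimated reads, and behind the MSC values 554, 468 and 2580. Grem1 averaged 15.2 ± 1.83 in MSC and 0.200 ± 0.170 in TAC (SD, n = 3 each). The log2 difference (log2 fold change), TAC minus MSC on the scale of log2(value + 1), came to -3.76 (SE 0.48, limma adjusted p 0.0389). The fold depended on how near 0 the TAC level was taken to be. After removal of 1 read, which the spacing of the values gives as included in each of them, MSC replicates 1 and 2 were 51.5-fold above TAC replicates 1 and 2. MSC replicate 3 was at least 1510-fold above TAC replicate 3, taking 3 reads as the limit of a library with none. The call was lost with a pseudocount of 0.1 (adjusted p 0.0976), with voom on estimated reads (0.129), and without TAC replicate 3 (log2 difference -3.63, adjusted p 0.0659). It was also lost when any 1 of the 4 libraries of replicates 1 and 2 was left out (adjusted p from 0.208 to 0.241), and in these 4 fits 0 of the 15391 genes passed. It was kept without MSC replicate 3 (adjusted p 0.0303) and with the block (0.0442).

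Fst (chromosome 13, 114452262 to 114458730, minus strand) was 4.61, 4.26 and 18.9 in the MSC libraries, and 0.525, 1.05 and 2.62 in the TAC libraries. Every MSC value lay above every TAC value, and replicate 3 was the highest of its group on both sides. Fst averaged 9.27 ± 8.37 in MSC and 1.40 ± 1.09 in TAC (SD, n = 3 each), a ratio of 6.62, with a log2 difference of -1.90 (SE 0.71, limma adjusted p 0.352). Replicates 1 and 2 alone gave -1.62, and replicate 3 gave -2.46. Without MSC replicate 3, the highest library, the difference over the other 5 was -1.27. Inhba, a subunit of the activins that follistatin holds, was 32.7, 29.9 and 1.98 in MSC and 13.5, 13.4 and 1.27 in TAC. It too was lower in each TAC library than in the MSC library of the same number, but replicate 3 was far below the others in both groups, and the log2 difference was -0.90 (SE 1.13, adjusted p 0.823). For Inhba the first pair of replicates gave -1.16, and replicate 3 gave -0.39.

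Nog (chromosome 11, 89300638 to 89302332, minus strand) was 3.41, 2.96 and 1.72 in the MSC libraries, and 0.701, 0.815 and 1.58 in the TAC libraries. The groups were apart in replicates 1 and 2 and nearly met in replicate 3, which had 258 reads in MSC and 415 in TAC. In replicate 3 the 95% counting intervals of the levels, 1.51 to 1.94 in MSC and 1.43 to 1.73 in TAC, overlapped. These intervals (exact Poisson) cover counting error only. Nog averaged 2.70 ± 0.873 in MSC and 1.03 ± 0.476 in TAC (SD, n = 3 each), with a log2 difference of -0.86 (SE 0.51, limma adjusted p 0.574). Replicates 1 and 2 alone gave -1.25, and replicate 3 gave -0.08.

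Chrdl1 (chromosome X, 143285674 to 143394262, minus strand), which encodes the BMP-binding protein chordin-like 1, was near or at the limit of detection in most libraries. It had 2, 13 and 0 estimated reads in the MSC libraries, and 1, 27 and 327 in the TAC libraries. The values were 0.0799, 0.406 and 0.00666 in MSC and 0.0438, 0.671 and 1.24 in TAC, and the groups overlapped. TAC replicate 3 was at least 62.1-fold above MSC replicate 3, but replicate 1 of the groups did not differ beyond counting error. When genes of any level were fitted, the log2 difference was 0.45 (SE 0.32, limma adjusted p 0.792).

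Bmp6 (chromosome 13, 38345716 to 38499728, plus strand) had the largest difference among the 6 ligands. It was 31.0, 32.8 and 16.5 in the MSC libraries, and 6.02, 4.17 and 0.701 in the TAC libraries. The lowest MSC library was above the highest TAC library, and replicate 3 was the lowest of its group on both sides. Even the lowest value, in TAC replicate 3, rested on 184 estimated reads. Bmp6 averaged 26.7 ± 8.93 in MSC and 3.63 ± 2.70 in TAC (SD, n = 3 each), a ratio of 7.36, with a log2 difference of -2.75 (SE 0.63, limma adjusted p 0.148, unadjusted p 0.00293). The size depended on how low values were weighed and on the TAC library with the lowest value, being -1.89 with a pseudocount of 5, -4.67 with voom and -2.14 without TAC replicate 3. With the replicate block its SE was 0.37 and its adjusted p 0.0540. Replicates 1 and 2 alone gave -2.45, and replicate 3 gave -3.36.

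Bmp2 (chromosome 2, 133552159 to 133562885, plus strand), a ligand that acts in odontoblast and bone differentiation, was 103, 108 and 77.0 in the MSC libraries, and 61.2, 64.3 and 27.2 in the TAC libraries. Every MSC library was above every TAC library, by less than for Bmp6. Bmp2 averaged 96.0 ± 16.7 in MSC and 50.9 ± 20.6 in TAC (SD, n = 3 each), a ratio of 1.89, with a log2 difference of -0.98 (SE 0.39, limma adjusted p 0.382, unadjusted p 0.0376). Replicates 1 and 2 alone gave -0.74, and replicate 3 gave -1.47. Without TAC replicate 3 the difference over the other libraries was -0.59.

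Bmp4 and Bmp7 had higher values in TACs. Bmp4 (chromosome 14, 46383520 to 46390669, minus strand), a mesenchymal signal of the developing tooth, was 40.2, 37.6 and 54.6 in the MSC libraries, and 58.7, 54.1 and 82.8 in the TAC libraries. Each TAC library was above the MSC library of the same number, but MSC replicate 3 reached just above TAC replicate 2, so the groups overlapped. Bmp4 averaged 44.1 ± 9.15 in MSC and 65.2 ± 15.4 in TAC (SD, n = 3 each), a ratio of 1.48. The log2 difference of 0.55 (SE 0.30, limma adjusted p 0.532) was nearly the same in both library sets, at 0.52 in replicates 1 and 2 and 0.59 in replicate 3.

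Bmp7 (chromosome 2, 172868012 to 172940321, minus strand) was 40.8, 40.1 and 30.3 in the MSC libraries, and 55.4, 58.9 and 54.3 in the TAC libraries. The TAC libraries lay close together and all were above the MSC libraries. Bmp7 averaged 37.1 ± 5.86 in MSC and 56.2 ± 2.41 in TAC (SD, n = 3 each), a ratio of 1.52, with a log2 difference of 0.60 (SE 0.26, limma adjusted p 0.426, unadjusted p 0.0512). Replicates 1 and 2 alone gave 0.49, and replicate 3 gave 0.82.

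Bmp5 and Bmp3 took opposite directions in the library sets, as 38.8% of all genes tested did. Bmp5 (chromosome 9, 75775364 to 75900310, plus strand), closest in sequence to Bmp6 and Bmp7, was 9.21, 10.6 and 29.1 in the MSC libraries, and 14.3, 13.7 and 9.15 in the TAC libraries. TAC was above MSC in replicates 1 and 2 (log2 difference 0.46) and below it in replicate 3 (-1.57). Over all 6 libraries the log2 difference was -0.22 (SE 0.50, limma adjusted p 0.922). In replicates 1 and 2 only, the higher TAC value passed the adjusted threshold (0.0452, where 44.2% of all genes passed). Bmp3 (chromosome 5, 98854415 to 98884396, plus strand), a relative that opposes other BMPs, was 2.80, 4.40 and 3.06 in MSC and 5.32, 4.29 and 1.797 in TAC. Its groups overlapped, and its log2 difference was 0.06 (SE 0.54, adjusted p 0.985), made of 0.35 for replicates 1 and 2 alone and -0.54 for replicate 3. A limma contrast between the library sets, which takes its error from replicates 1 and 2 and assumes that replicate 3 varies like them, passed the adjusted threshold for 4 of the 9 genes tested (Bmp2, Bmp5, Bmp6 and Nog). Since 57.2% of all genes did, this is no result about these genes.

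**Figure D2:**
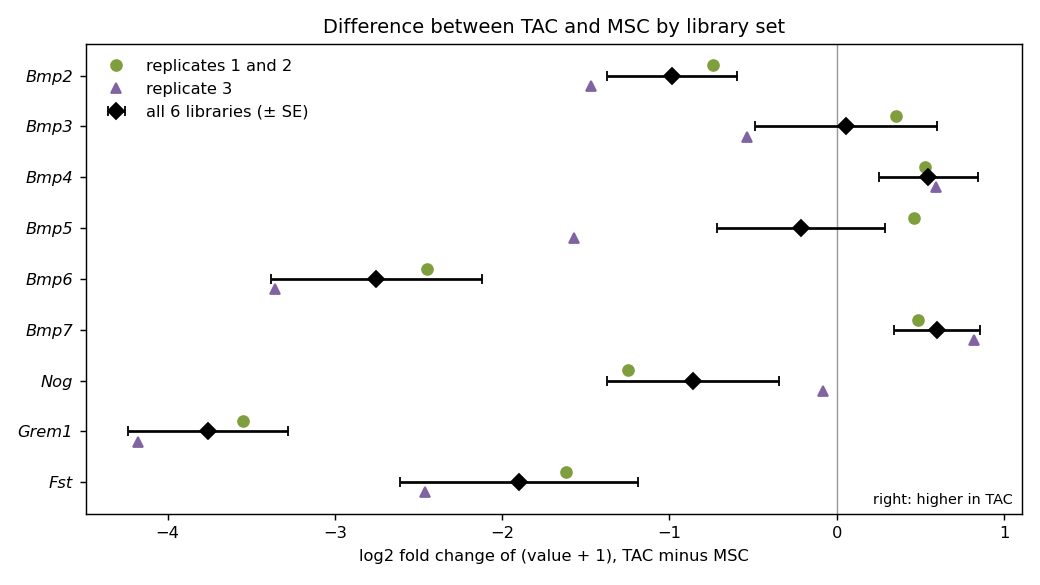
Log2 difference of (value + 1), TAC minus MSC (x axis), for the 9 genes tested, over all 6 libraries with its SE (black), within replicates 1 and 2 (green) and within replicate 3 (purple). Bmp2, Bmp6, Nog, Grem1 and Fst lie left of 0 in both sets, Bmp4 and Bmp7 lie right of 0 in both, and Bmp3 and Bmp5 change side.

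Levels were then compared between the genes, as normalized read number per kilobase of annotated exon. In MSC the ligands were ordered Bmp2 (27.0 ± 4.69), Bmp4 (19.6 ± 4.07), Bmp7 (9.22 ± 1.46), Bmp6 (6.85 ± 2.29), Bmp5 (4.05 ± 2.77) and Bmp3 (0.459 ± 0.115), each as mean ± SD over 3 libraries. In TAC the order was Bmp4 (29.0 ± 6.87), Bmp2 (14.3 ± 5.79), Bmp7 (14.0 ± 0.596), Bmp5 (3.07 ± 0.697), Bmp6 (0.927 ± 0.690) and Bmp3 (0.512 ± 0.244). Neighbours within the spread were Bmp2 and Bmp4, Bmp7 and Bmp6, and Bmp6 and Bmp5 in MSC, and Bmp2 and Bmp7, and Bmp6 and Bmp3 in TAC. The level of Bmp4 relative to Bmp2, a ratio within a library that no scaling between libraries can move, was 0.618, 0.549 and 1.12 in the MSC libraries. It was 1.52, 1.33 and 4.82 in the TAC libraries, above every MSC value. The level of Bmp7 relative to Bmp6 was 1.28, 1.19 and 1.79 in MSC and 8.95, 13.8 and 75.5 in TAC.

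The summed level of the 6 ligands per kilobase was slightly higher in every MSC library than in any TAC library, and its makeup differed more. It was 67.6, 68.7 and 65.3 in the MSC libraries, and 62.9, 61.8 and 60.7 in the TAC libraries. Bmp2 made up 42.9%, 44.3% and 33.1% of the sum in MSC and 27.4%, 29.2% and 12.6% in TAC. Bmp4 made up 26.5%, 24.3% and 37.2% in MSC and 41.5%, 38.9% and 60.7% in TAC. Bmp6 went from 11.7%, 12.2% and 6.46% in MSC to 2.45%, 1.72% and 0.295% in TAC, and Bmp7 from 15.0%, 14.5% and 11.5% to 21.9%, 23.7% and 22.2%. These shares of a sum move together and are given without a test.

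The summed level of the 4 antagonists was 6.56, 5.97 and 9.28 per kilobase in the MSC libraries, and 0.577, 0.857 and 1.68 in the TAC libraries. Relative to the ligand sum it was 9.71%, 8.70% and 14.2% in MSC and 0.917%, 1.39% and 2.77% in TAC. Grem1 was the most abundant of the 4 in all 3 MSC libraries, at 54.2%, 54.7% and 44.6% of their sum, though in MSC replicate 3 Fst was close to it at 44.5%. With the length of the longest transcript in place of all exons the order in MSC replicate 3 turned, with Fst at 55.7% and Grem1 at 35.6%. In TAC it was Nog, at 69.4%, 54.5% and 55.2%. The sum covers these 4 genes and no other antagonist, so the percentages do not stand for all of them. Sostdc1 and Nbl1, from the other extracellular modulators below, had far higher values over shorter exons (1781 and 2033 bases). Sostdc1 ran from 46.7 to 211 over the 6 libraries and Nbl1 from 57.9 to 321, against at most 18.9 for the 4. Their MSC means were 2.12 and 2.22 times their TAC means.

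**Figure D3:**
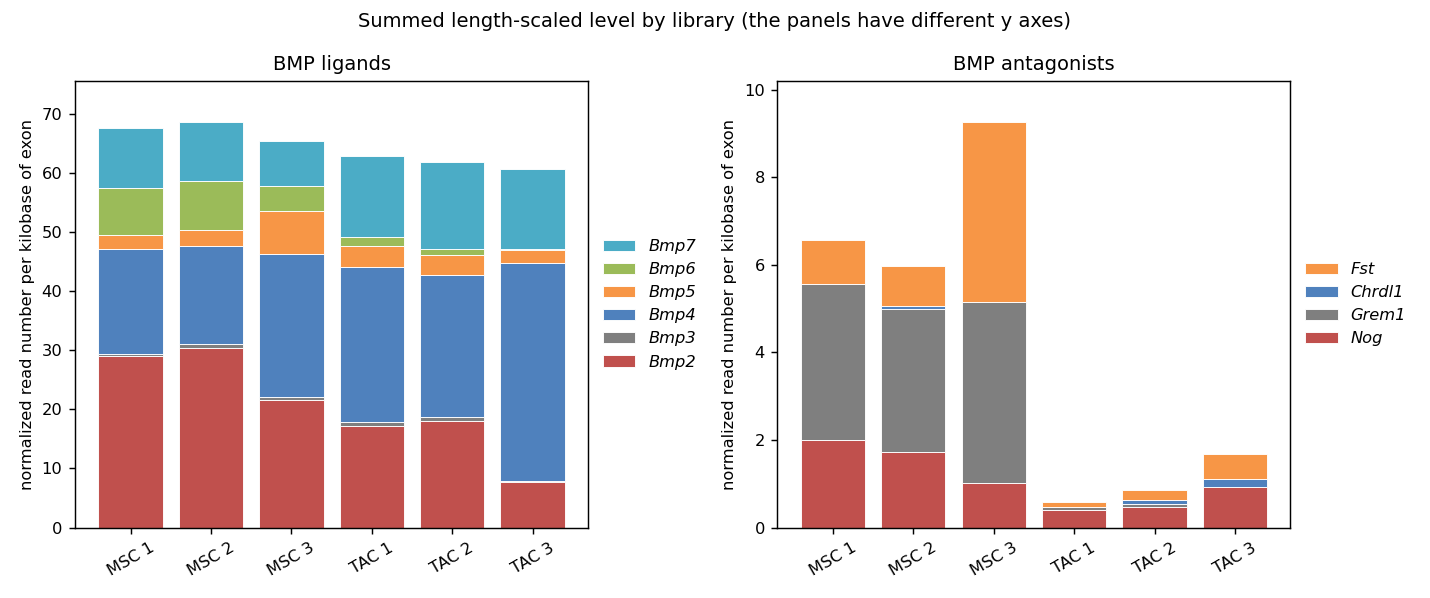
Normalized read number per kilobase of exon, stacked by gene, for the 6 BMP ligands (left) and the 4 antagonists (right) in each library, with different y axes. The ligand columns all end between 60.7 and 68.7, and the antagonist columns end between 5.97 and 9.28 in MSC and between 0.577 and 1.68 in TAC.

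The sequence just upstream of the start site is shown for the antagonist and the ligand with the largest differences toward MSC (Grem1 and Bmp6) and for the most abundant ligand of TACs (Bmp4). These are 250 bases from RefSeq on GRCm38.p6 (the mm10 build), 5′ to 3′ on the strand of the gene, that end at the base before the start site. Capitals mark motif matches on either strand.
Grem1, chr2:113758649-113758898, minus strand: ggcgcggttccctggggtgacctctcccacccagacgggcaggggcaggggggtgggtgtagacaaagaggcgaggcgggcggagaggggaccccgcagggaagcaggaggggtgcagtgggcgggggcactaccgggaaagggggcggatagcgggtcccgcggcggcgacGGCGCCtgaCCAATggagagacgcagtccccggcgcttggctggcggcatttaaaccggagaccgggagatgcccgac
Bmp6, chr13:38345466-38345715, plus strand: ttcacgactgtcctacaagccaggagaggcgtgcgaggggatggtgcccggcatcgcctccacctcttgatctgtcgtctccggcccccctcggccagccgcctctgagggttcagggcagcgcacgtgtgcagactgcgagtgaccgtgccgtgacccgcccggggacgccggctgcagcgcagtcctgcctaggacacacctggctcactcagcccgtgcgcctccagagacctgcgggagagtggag
Bmp4, chr14:46390670-46390919, minus strand: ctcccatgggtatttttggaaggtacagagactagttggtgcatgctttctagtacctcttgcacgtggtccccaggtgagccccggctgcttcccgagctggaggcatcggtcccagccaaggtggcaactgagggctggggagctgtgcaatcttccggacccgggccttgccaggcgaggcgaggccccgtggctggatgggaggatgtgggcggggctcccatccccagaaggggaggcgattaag

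All 3 were rich in G and C, at 72.0% in Grem1, 68.8% in Bmp6 and 63.2% in Bmp4, against a median of 52.4% over 32851 promoters of that length. The promoter of Bmp5, the only other one at hand among the 10 genes, was below that median at 42.8%. The motifs searched were GACCACCCA (GLI factors, which include the driver gene Gli1), CTTTGAT (TCF/LEF factors of the WNT pathway), GGCGCC (a GC-rich SMAD element), TATAAA and CCAAT, on both strands, and no match overlapped another. They occurred in 0.225%, 3.21%, 9.59%, 12.4% and 33.8% of all promoters. Grem1 held GGCGCC from -78 to -73 and CCAAT from -69 to -65, counted from the start site. The windows of Bmp6 and Bmp4 held none of the 5 motifs, which says only that these letters are not in 250 bases.

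The rest of the pathway was compared through lists of 63 further genes reported here, of which 58 were listed and 45 tested. In limma 0 of the 45 passed the adjusted threshold and 5 had an unadjusted p-value under 0.05, 2 toward MSC and 3 toward TAC. Of all genes 11.9% had such a p-value. The MSC and TAC values did not overlap for 11 of the 45, near the 24.5% of all genes, so this is no result about these lists. Lack of overlap was also a rule by which genes are named below. The replicate block moved the unadjusted count to 16, against 20.4% of all genes, and left 0 past the adjusted threshold. With voom on estimated reads 10 passed the unadjusted threshold and 0 the adjusted one, against 23.2% and 0.149% of all genes.

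Among 21 other extracellular modulators 15 were tested. Of these 12 had a log2 difference below 0, where 48.5% of all genes did. The groups did not overlap for 3 of the 15, against 24.5% of all genes. An unadjusted p-value (limma) under 0.05 was found for 1, against 11.9%. Their median difference was -0.87, against 0.03 for all genes tested. The median was -0.85 when replicate 3 was set aside and -0.57 within it. Tsku (tsukushi, which binds BMPs) was 45.6, 45.8 and 42.3 in MSC and 12.7, 10.3 and 24.6 in TAC, with a log2 difference of -1.53 (SE 0.37, limma adjusted p 0.168). Its difference was larger for replicates 1 and 2 alone (-1.91) than for replicate 3 (-0.76). Sostdc1, a secreted inhibitor of BMP and WNT signals, was 79.6, 77.3 and 211 in MSC and 46.7, 49.6 and 76.8 in TAC. Its lowest MSC value lay just above its highest TAC value, and the log2 difference was -0.94 (SE 0.45, adjusted p 0.473). For Sostdc1 it was replicate 3 that gave the larger value (-1.44, against -0.69). Of 18 other BMP, GDF and activin ligands 7 were tested, with a median of -0.74 and none past the adjusted threshold. Their largest changes without overlap were Bmp8a, at 1.46 (SE 0.77, adjusted p 0.519), and Gdf1, at -1.40 (SE 0.66, adjusted p 0.470). Bmp8a had no read in MSC replicate 3, and its difference of 0.68 for replicates 1 and 2 alone became 3.002 for replicate 3. Gdf1 had 4 reads in TAC replicate 1, and its differences in the same order were -1.03 and -2.12.

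On the receiving side, 8 of 9 receptors, all 8 SMAD and SMURF genes and all 7 target genes were tested, with medians of 0.07, 0.10 and 0.37, and none passed the adjusted threshold. Without replicate 3 the medians were -0.06, -0.08 and 0.18, and within it 0.10, 0.28 and 0.84, so that those of the receptors and the SMAD and SMURF genes changed sign. The receptor Bmpr1a was 30.9, 30.7 and 42.0 in MSC and 43.3, 39.9 and 44.4 in TAC, a log2 difference of 0.31 (SE 0.27, limma adjusted p 0.710). Bambi, a decoy receptor that BMP signaling induces, was 53.0, 50.9 and 70.3 in MSC and 134, 140 and 130 in TAC. All TAC libraries were above all MSC libraries, with a log2 difference of 1.21 (SE 0.26, adjusted p 0.126, 0.0556 with the block). Bambi differed by 1.38 in the first pair of replicates and by 0.88 in replicate 3. The ubiquitin ligase gene Smurf1, whose product marks SMADs for breakdown, differed by -0.88 (SE 0.34, adjusted p 0.368), and Smad5 by 0.45 (SE 0.26, adjusted p 0.567).

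The BMP target Msx2, a homeobox gene of dental mesenchyme, was 43.6, 44.3 and 26.9 in MSC and 109, 107 and 104 in TAC. The 3 TAC values were nearly equal and all lay above MSC, a log2 difference of 1.49 (SE 0.29, limma adjusted p 0.106, 0.0525 with the block). Dlx5 was 86.4, 86.6 and 109 in MSC and 162, 159 and 196 in TAC, a log2 difference of 0.87 (SE 0.26, adjusted p 0.254). Msx1 was 114, 114 and 52.8 in MSC and 146, 150 and 136 in TAC, a log2 difference of 0.70 (SE 0.36, adjusted p 0.509). Id1, a direct target of BMP signaling, was 39.0, 41.4 and 71.6 in MSC and 43.3, 48.0 and 75.8 in TAC. The Id1 groups overlapped and its log2 difference was 0.15 (SE 0.36, adjusted p 0.928). Of the 7 targets 5 had a difference above 0, and Id2 (-0.25) and Id3 (-0.13) had one below 0, as 48.5% of all genes did. Taken alone, replicates 1 and 2 gave differences of 1.28 for Msx2, 0.88 for Dlx5, 0.37 for Msx1 and 0.18 for Id1. Replicate 3 gave 1.90 for Msx2, 0.84 for Dlx5, 1.35 for Msx1 and 0.08 for Id1.

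**Figure D4:**
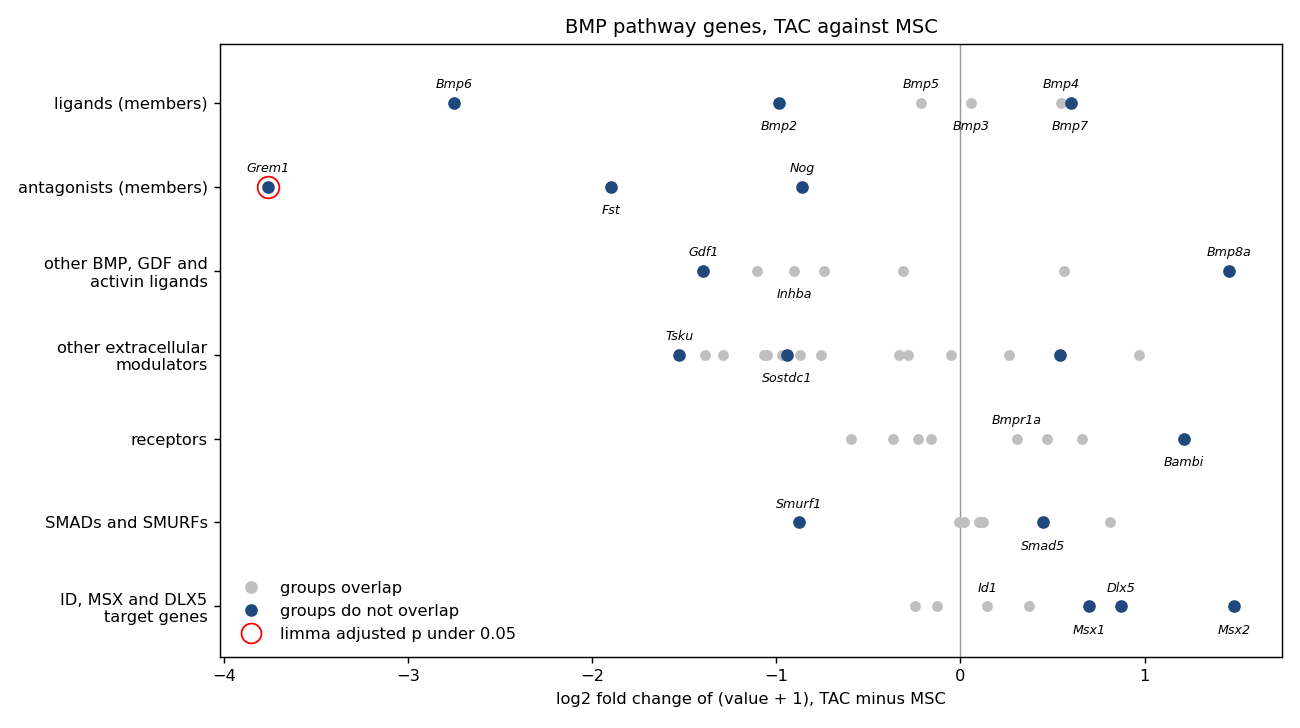
Log2 difference of (value + 1), TAC minus MSC (x axis), for each tested gene of the ligand, antagonist and other BMP pathway lists (rows), with dark points for genes whose MSC and TAC values do not overlap and a red ring for an adjusted p-value under 0.05. Grem1 at -3.76 carries the ring, and Bambi, Msx1, Msx2 and Dlx5 lie between 0.70 and 1.49.

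For the 3 genes with the smallest unadjusted p-values, the genes with the most similar profile were those with the smallest root mean square difference of centred log2(value + 1) over the 6 libraries. For Grem1 these were Bhlhe41 (0.137), St6galnac5 (0.140) and Trpm5 (0.195). For Bmp6 they were Sdpr (0.151), Phactr1 (0.212) and Cp (0.220), and for Fst they included Sh3d21 (0.152) and Flt3l (0.175). The libraries share depth and library set, and the likeness includes both.

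Markers of other cell types were compared between the captured regions as well. Of the 10 smooth muscle and pericyte markers 9 were tested, and all 9 had higher values in every MSC library than in any TAC library, as 12.2% of all genes did. Of these, 5 passed the adjusted threshold, against 0.383% of all genes toward MSC. Their summed level was 900, 913 and 1707 in MSC and 142, 138 and 125 in TAC, with Des near 0 in every library and Cnn1 without a read in TAC replicate 3. The 9 endothelial markers summed to 296 to 306 in MSC and 91.0 to 131 in TAC, with 6 of 9 higher in every MSC library (12.2% of all genes). The 8 Schwann cell markers summed to 48.3 to 165 in MSC and 24.4 to 51.6 in TAC, and the 9 macrophage markers to 119 to 284 and 62.0 to 145. Both sums overlapped between the groups but were higher in MSC for each replicate number, and 2 of 5 Schwann cell and 4 of 9 macrophage markers tested were higher in every MSC library. Grem1, Bmp6, Fst and Bmp2 were higher in the MSC libraries, as the smooth muscle and endothelial sums were, whereas Bmp4 and Bmp7 had higher values in TACs. Within MSC, Grem1 and Fst were highest in replicate 3, where the smooth muscle sum was highest, and Bmp6 and Bmp2 were lowest there. The smooth muscle markers themselves were split in that library. Rgs5 (276, 268 and 880 in MSC), Acta2, Tagln, Cnn1, Myl9 and Mcam were highest in it. Myh11 (204, 205 and 106), Notch3 (110, 124 and 86.8) and Cspg4 (125, 135 and 77.0) were lowest in it. The part of those cells in the values was not tested. In such bulk samples, fewer cells of a type and less RNA per cell cannot be told apart.

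The summed markers of dental epithelium and of odontoblasts overlapped between the groups. The 10 epithelial markers listed summed to 325 to 3678 in MSC and 2320.2 to 3362 in TAC, most of it from the enamel matrix genes Amelx and Ambn, and MSC replicate 3 was the lowest. Of the 10, 4 were higher in every TAC library than in any MSC library, as 12.3% of all genes were. Cdh1, Epcam and Shh, which define the epithelium, were without a read in MSC replicate 3 and present in every other library, whereas Krt5, Krt14 and Perp were higher there than in MSC replicates 1 and 2. The 6 odontoblast markers summed to 811 to 5302 in MSC and 4465 to 4817 in TAC, with MSC replicate 3 again the lowest. Their part in the values of Bmp4 and Bmp7 was not tested.

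Since the use of strand in counting is not stated in the sources used here, reads of an overlapping gene may be included for Bmp4 (Gm15217 and Gm15222), Bmp5 (Gm26903 and Gm47723), Bmp6 (4930579J19Rik and, by the longer span of Bmp6 in GENCODE, Txndc5) and Fst (Gm47040). The other 6 genes overlap no annotated gene.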

How the data were processed

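RNA from 3 MSC and 3 TAC samples was sequenced with single-end reads, and per the labels the submitters' processing notes name CASAVA 1.8.2, TopHat2 2.0.8, Partek and the build mm10. The deposited table holds a signal made by the authors, described by them as RPKM. The lowest value of each library was shared by genes of any length and most other low values were close to multiples of it, so the signal was read as an estimated read number plus 1, scaled per library. Between 69.0% and 76.2% of low values (up to 10 reads) were whole within 0.05. Dividing a value by its library's minimum and subtracting 1 gave the estimated reads. The planned test assumed RPKM and suited the signal unchanged.

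limma 3.58.1 (R 4.3.3) was fitted with a variance trend to log2(value + 1) of the 15391 genes whose mean reached 1, two-sided, with Benjamini-Hochberg adjustment and 0.05 as the threshold. Adding 1 before the logarithm shrinks the differences of weakly expressed genes. Alternatives were other pseudocounts, filters, scalings, variance models, voom on estimated reads, a replicate block, library set as a term and samples left out. The fits were tested on simulated data. Without a shift between the library sets each fit of the group difference recovered the changed genes. A shift taken from these data, but made equal in both groups, was then added. The reported fit, which has no block or set term, recovered none of the changed genes. Genes that missed its threshold therefore cannot be read as unchanged. The fits with either term recovered all, as such a term takes up an equal shift. In the data the shift was not equal, with 57.2% of genes past the limma contrast between the library sets. How the fits with a term do in that case was not simulated. Levels per kilobase used the union of exons in GENCODE release M21. Coordinates are those deposited with the end lowered by 1, which gave the M21 span for 8 of the 10 genes and not for Bmp6 and Fst. Promoters of 4 of the 10 genes were in the RefSeq table.

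Some genes that these rules or lists would name are not reported here and are left out of the list counts and sums. The genes, lists and library sets were chosen with earlier results of these data known. Named were the 10 genes, listed genes past the adjusted threshold, per list the 2 largest changes without overlap, Inhba, Bmpr1a, Id1, Msx1, Msx2, the marker genes Gli1, Axin2 and Mki67, and the 3 most similar profiles of 3 genes. Deviations from group means, correlated across genes, gave 0.477, 0.466 and 0.517 for same-numbered samples, and 0.462 and 0.480 for replicates 1 and 2 crossed, so the pairing by the labels' numbers is mostly that of replicate 3 against the others. Replicates 1 and 2 of a group differed by more than counting noise (chi-square per degree of freedom 10.3 in MSC and 8.32 in TAC).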

Additional observations from a re-analysis of the deposited data

Results flagged for a closer look

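A limma contrast of the difference between TAC and MSC in replicate 3 with that in replicates 1 and 2 passed the adjusted threshold for 4 of 9 genes tested, a share below the 57.2% of all genes that passed it. Replicate 3 has 1 library per group, so the error is the spread between replicates 1 and 2 alone and is assumed to hold for replicate 3, which these data cannot check. The values are therefore given as a description. The log2 fold change in replicate 3 minus that in replicates 1 and 2 was -0.73 for Bmp2 (SE 0.12), -2.03 for Bmp5 (SE 0.25), -0.91 for Bmp6 (SE 0.34) and 1.17 for Nog (SE 0.40). For Bmp2, Bmp6 and Nog the direction was the same in both sets, and for Bmp5 it was opposite.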

How the results depend on the processing

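Bmp2, Bmp4, Bmp6, Bmp7, Nog, Grem1 and Fst kept their direction in each alternative run. Grem1 had an adjusted p-value (limma) from 3.12e-10 to 0.241 over 17 alternatives and passed in 9. It did not pass with a pseudocount of 0.1 (-5.90), without a filter (-3.76) or with voom on estimated reads (-9.53). With 1 sample left out its log2 fold change ran from -3.83 to -3.63. Thus 0 of the 10 genes passed with a pseudocount of 0.1, without a filter, with a mean of at least 10 (which leaves out Grem1) or with voom, where 5, 4, 3 and 3 had an unadjusted p-value under 0.05, against 10.6%, 7.79%, 14.6% and 23.2% of all genes. With 1 sample left out the count was 0 or 1, with 0 of all genes past the threshold without MSC replicate 1 or 2 or TAC replicate 1 or 2. Over these 6 fits 3 to 7 had an unadjusted p-value (limma) under 0.05, against 6.68% to 20.2% of all genes. The 7 and the 20.2% both came without MSC replicate 3. With sample quality weights 8 passed, with library set as a term 6, and in replicates 1 and 2 only 8, in fits where 46.2%, 11.8% and 44.2% of all genes did. The first of these gave Bmp2 -0.75, Bmp4 0.53, Bmp6 -2.44, Bmp7 0.49, Nog -1.25 and Fst -1.64. With library set as a term the values were -0.98 for Bmp2, 0.55 for Bmp4, -2.75 for Bmp6, 0.60 for Bmp7 and -1.90 for Fst. In replicates 1 and 2 only they were -0.74 for Bmp2, 0.52 for Bmp4, -2.45 for Bmp6, 0.49 for Bmp7, -1.25 for Nog and -1.62 for Fst. Bmp5 reversed and passed toward TAC with sample quality weights (0.45, adjusted p 0.0229) and in replicates 1 and 2 only (0.46, adjusted p 0.0452), and ran from -0.51 to 0.27 with 1 sample left out. Bmp3 reversed with voom (-0.57), and ran from -0.18 to 0.41. The replicate block changed no call of the 10 genes. Of the other 45 pathway genes tested, 29 passed with sample quality weights and 8 with library set as a term, against 46.2% and 11.8% of all genes. In replicates 1 and 2 only, 28 passed, against 44.2% of all genes. With 1 sample left out 0 to 2 passed, the 2 without MSC replicate 3, where 1.9% of all genes did. The count of genes that differed between library sets was 2 without a filter and 2 to 4 with 1 sample left out, being 2 without MSC replicate 1 or TAC replicate 1. Scaling by the longest transcript moved the share of the antagonist sum to 50.2% for Nog in TAC, 45.2% for Grem1 in MSC and 34.2% for Fst in TAC. The cause of these changes was not tested. Chrdl1 had too low a mean for the test. Depth limits Grem1 in TAC, where 12 reads in replicate 1 allow a level of 0.136 to 0.459, and Chrdl1 in both groups.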
